A study of Mus musculus with 25 samples.

Results

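The genes described here are the estrogen receptor gene Esr1, the progesterone receptor gene Pgr, the glucocorticoid receptor gene Nr3c1, the steroid 5-alpha-reductase genes Srd5a1 and Srd5a2, and Greb1, a coactivator of the estrogen receptor and itself a well-known estrogen target. They were listed by symbol, with earlier results of these data known and no measured value in the rule, and make up 6 of the 35880 genes in the count table. RNA-Seq libraries had been made from mesenchyme, an embryonic connective tissue, in 5 tissues of C57Bl/6JOlaHsd mouse embryos with 5 libraries each. The tissues were ventral skin mesenchyme distant from the glands (E13.5 VM), mammary mesenchyme at E13.5 and E16.5 (E13.5 MM and E16.5 MM), the fat pad precursor at E16.5 (E16.5 FP) and salivary gland mesenchyme at E13.5 (E13.5 SM). The labels name no allele, transgene or treatment for any group. The sex label reads female for the E16.5 libraries and not applicable for those of E13.5, so stage and sex cannot be told apart in any comparison between the stages. Each library pooled 2 to 3 embryos of a litter and the 5 libraries of a tissue came from 3 litters. The sources used here do not say which libraries shared a litter, and the p-values measure the spread between pools.

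Steroid hormone receptors are transcription factors that chaperones hold ready for ligand. Once bound by hormone they sit on DNA response elements and recruit coactivators or corepressors. 5-alpha-reductases act before that step, since they turn testosterone into the more potent dihydrotestosterone and also reduce progesterone and corticosteroids. In the embryonic mammary gland of the mouse, the mesenchyme is a classical site of sex steroid action.

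Total counts per library ran from 20678150 to 34448304. A normalized count is a count scaled by the library's TMM factor to the mean effective library of 26544648 counts. The 7 general mesenchyme markers were above 0 in every tissue and summed to between 11700 and 44440 CPM, the count scaled to library size. Salivary mesenchyme markers summed to 531.9 to 651.8 CPM in E13.5 SM and to at most 47.59 in the other tissues, and fat pad markers to 1018 to 1837 CPM in E16.5 FP and at most 397.3 elsewhere. The authors had reported the fat pad markers, and Nr5a2 and Klf14 of the salivary ones, as enriched in those tissues in these same libraries. Those sums are therefore no independent check of tissue identity. The mammary mesenchyme list (Tnc, Lef1, Tbx3, Pth1r and Msx2) did not set E13.5 MM apart, with 318.8 to 377.1 CPM there, 374.8 to 455 in E13.5 VM and 376.3 to 625 in E13.5 SM. It reached 499.7 to 884.9 CPM in E16.5 MM. The 12 epithelial markers summed to 18.62 to 128.4 CPM in E16.5 MM and 6.094 to 18.21 in E13.5 MM, and the 9 muscle markers to 784.1 to 8408 CPM in E16.5 FP. The Y-linked genes Ddx3y and Eif2s3y had 0 to 2 raw counts in each of the 10 E16.5 libraries, which are labelled female. At E13.5 they had 0 and 2 in replicate 1 of E13.5 SM and at least 1354 and 433 in the other 14 libraries. Raw counts of Ddx3y ran from 1354 to 2715 in E13.5 VM and from 2149 to 6918 in E13.5 MM. None of the 4 Y-linked genes was called between those tissues. Pools within a tissue differed so widely that this cannot show an equal share of male RNA. The part of sex in differences among the E13.5 tissues was not tested. Uty and Kdm5d, whose X-linked homologs are similar in sequence, had counts of at least 237 in all 25 libraries. Leaving out replicate 1 of E13.5 SM changed no call of the 6 genes in the 4 comparisons with E13.5 SM.

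All 6 genes passed the expression filter, and 10 pairs of tissues were compared. A gene was called where edgeR's quasi-likelihood test gave an adjusted p under 0.05, the log2 fold change was at least 0.58 in size and the mean normalized count of the higher tissue was above 50. In E13.5 MM against E13.5 VM 3 of the 6 genes were called, all higher, where 6.45% of all tested genes were called (3.79% higher, 2.66% lower). Between the mammary stages 1 rose and 2 fell, with 19.8% of all genes called (12.6% higher and 7.16% lower in E16.5 MM). Between E16.5 MM and E16.5 FP 1 was higher in mesenchyme and 1 lower, with 14.1% of all genes called (7.34% higher, 6.78% lower). Salivary mesenchyme gave 3 calls against E13.5 MM, 2 against E16.5 MM and 3 against E16.5 FP, where 30.1%, 35.1% and 39.5% of all genes were called. E16.5 FP differed from E13.5 MM in 2 of the genes, with 25.5% of all genes called. Against E13.5 VM there were 4 calls for E13.5 SM, 4 for E16.5 MM and 3 for E16.5 FP, beside 30.2%, 23.3% and 27.4% of all genes. By adjusted p alone, with no minimum of size or count, 4 of the 6 passed for E16.5 MM against E16.5 FP (33.8% of all genes) and 5 for E16.5 FP against E13.5 MM (53.0%). Against salivary mesenchyme 5 passed for E13.5 MM (61.1% of all genes), 6 for E16.5 MM (68.1%) and 5 for E16.5 FP (71.7%). Passing by adjusted p was thus common among all genes in those comparisons. By gene the calls were 9 of 10 comparisons for Esr1, 7 each for Srd5a2 and Greb1, 4 for Nr3c1, 2 for Srd5a1 and none for Pgr, whose mean stayed at or below the count minimum in every tissue.

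**Figure D1:**
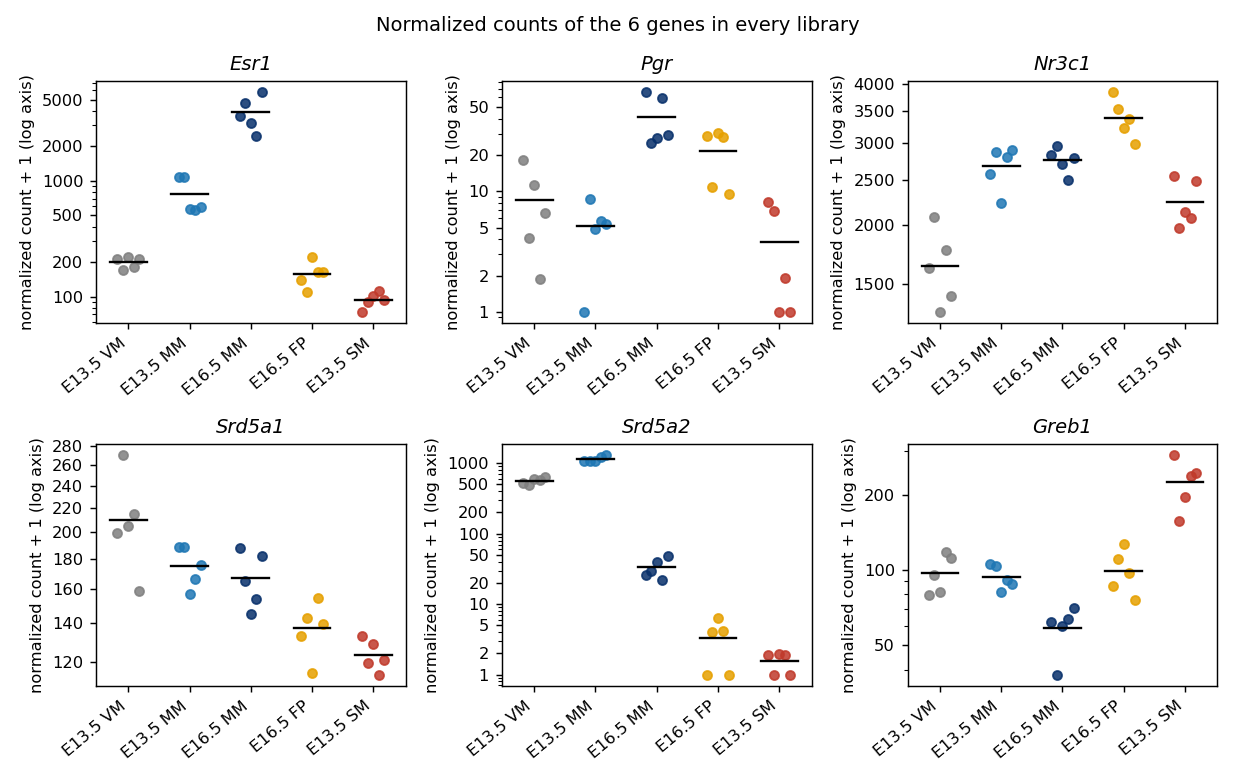
Normalized count plus 1 (log axis) of each gene in each of the 25 libraries, with tissues along the horizontal axis, 1 point per library and a bar at the mean of 5. The 5 libraries of E16.5 MM lie above all others for Esr1, Srd5a2 is high in E13.5 MM and E13.5 VM and near 0 in salivary mesenchyme and E16.5 FP, and Greb1 is highest in E13.5 SM.

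Esr1 encodes estrogen receptor alpha (chromosome 10, 4611593 to 5005614, plus strand, GRCm38). Its highest tissue mean was 42.4-fold its lowest. In E16.5 MM its normalized counts were 3635, 4683, 3144, 2401 and 5808 in replicates 1 to 5, with a mean of 3934 ± 1336 (SD, n = 5). In E13.5 MM they were 1077, 1066, 569, 553 and 593, with a mean of 772 ± 274. Replicates 1 and 2 of E13.5 MM thus stood apart from the other 3, yet the lowest library of E16.5 MM was above the highest of E13.5 MM.

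The remaining tissues were all lower. E13.5 VM had 209.9, 167, 218, 178 and 210.4 (mean 197 ± 22.5). E16.5 FP had 137, 109, 216, 162 and 161 (mean 157 ± 39.5), and E13.5 SM had 72.7, 89.2, 99.2, 111 and 91.5 (mean 92.6 ± 14.0). Ranges of E13.5 VM and E16.5 FP overlapped, those of E16.5 FP and E13.5 SM overlapped by 1 library of each, and both mammary tissues lay clear of the other 3.

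In E13.5 MM Esr1 exceeded its level in ventral skin by a log2 fold change of 1.97 ± 0.233 (SE, edgeR adjusted p = 1.31e-06). It was higher again in the later mammary mesenchyme by 2.35 ± 0.228 (edgeR adjusted p = 1.54e-08). Within the E16.5 mammary region, the mesenchyme exceeded the fat pad precursor by 4.65 ± 0.258, or 25.2-fold (edgeR adjusted p = 1.73e-12). Fewer expressing cells and less RNA per cell cannot be told apart in these bulk libraries. E16.5 FP was below the earlier mammary mesenchyme by a log2 fold change of -2.30 (edgeR adjusted p = 2.22e-08). Salivary mesenchyme was lowest, with E13.5 MM above it by 3.05 (edgeR adjusted p = 2.86e-10) and a log2 fold change of -1.09 for it against ventral skin (edgeR adjusted p = 0.00058). The order was therefore E16.5 MM, E13.5 MM, E13.5 VM, E16.5 FP and E13.5 SM. The neighbours E13.5 VM and E16.5 FP did not differ beyond their spread (log2 fold change -0.33, 95% interval -0.83 to 0.16, edgeR adjusted p = 0.25).

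Of the 11 tested epithelial markers 9 were also higher at the later mammary stage, so their values are given by library. Their sums in replicates 1 to 5 of E16.5 MM were 128.4, 34.83, 18.62, 69.29 and 105.6 CPM. The 2 libraries with the lowest sums, replicates 3 and 2, had 3144 and 4683 normalized counts of Esr1, and the 2 with the highest, replicates 1 and 5, had 3635 and 5808. Whether epithelial RNA had a part in the rise was not tested. Leaving out each library in turn kept the rise between 2.18 and 2.52 on the log2 scale. Raw counts of Ddx3y in E13.5 MM were 2149, 3168, 2511, 6503 and 6918 in replicates 1 to 5 and at most 1 in E16.5 MM, and for Esr1 too sex and stage cannot be told apart.

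Pgr, the progesterone receptor gene (chromosome 9, 8899833 to 8968611, plus strand), is induced by estrogen in many target tissues. It was scarcely detected in these libraries. Its raw counts in E16.5 MM were 57, 20, 22, 50 and 28, and in E16.5 FP 25, 10, 22, 26 and 8. At E13.5 they were 0, 8, 4, 6 and 5 in MM, 16, 3, 13, 1 and 6 in VM, and 8, 6, 0, 1 and 0 in SM. Every E16.5 MM library thus had more normalized counts (24.0 to 65.4) than any E13.5 library of the 3 tissues (0 to 17.2).

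The means were 40.4 ± 19.6 normalized counts in E16.5 MM, 20.5 ± 10.4 in E16.5 FP and, at E13.5, 7.41 ± 6.49 in VM, 4.14 ± 2.74 in MM and 2.77 ± 3.43 in SM (SD, n = 5). E16.5 MM exceeded E13.5 MM by a log2 fold change of 3.22 ± 0.721 (edgeR adjusted p = 0.000648) and E13.5 VM by 2.44 ± 0.683 (edgeR adjusted p = 0.00404). In 5 of the 10 comparisons Pgr passed the adjusted p without reaching the count minimum of a call, each of them between an E16.5 and an E13.5 tissue. The tissues of E16.5 did not differ detectably from each other at this depth (0.98, 95% interval -0.33 to 2.29, edgeR adjusted p = 0.264). Without replicate 1 of E13.5 SM, which held 8 of that tissue's 15 counts, E13.5 SM was below E13.5 VM by a log2 fold change of -2.06 (edgeR adjusted p = 0.0496) in place of -1.35 (adjusted p = 0.138). The 2 E16.5 MM libraries with the most Pgr, replicates 1 and 4 at 65.4 and 57.8 normalized counts, had epithelial sums of 128.4 and 69.29 CPM, while replicate 5 had 105.6 CPM and 28.2 normalized counts of Pgr. Whether epithelial RNA had a part in the Pgr counts was not tested.

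Greb1 (chromosome 12, 16670615 to 16800886, minus strand) did not have its highest level in mammary mesenchyme. It was highest in salivary mesenchyme, where Esr1 was lowest, with 288, 156, 195, 238 and 244 normalized counts (mean 224 ± 50.3). E16.5 MM had the lowest values, 60.8, 37.2, 58.9, 62.5 and 69.5 (mean 57.8 ± 12.2). The 3 other tissues lay between, with means of 96.5 ± 17.4 in ventral skin, 93.1 ± 10.4 in E13.5 MM and 98.5 ± 20.03 in E16.5 FP.

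The highest E16.5 MM library was below the lowest library of every other tissue (75.1, in E16.5 FP). Between the mammary stages Greb1 fell by 0.68 ± 0.186 on the log2 scale (edgeR adjusted p = 0.00384). That call rested on replicate 2 of E16.5 MM, without which the change was -0.55 (edgeR adjusted p = 0.016) and under the size threshold. Against E16.5 FP and E13.5 VM the log2 fold changes of E16.5 MM were -0.76 and -0.74 (edgeR adjusted p = 0.00216 and 0.00174). Salivary mesenchyme was higher than E13.5 VM by 1.21, and the log2 fold changes against it were -1.27 for E13.5 MM and -1.19 for E16.5 FP (edgeR adjusted p = 2.34e-06, 1.31e-06 and 2.61e-06). No difference was called among E13.5 VM, E13.5 MM and E16.5 FP, with 95% intervals of -0.43 to 0.32 for mammary mesenchyme against ventral skin at E13.5 and -0.29 to 0.46 for E16.5 FP against E13.5 MM. An antisense gene, Gm48140, covers 736 of the 9580 exon bases of Greb1 and was not analysed here, and the sources used here do not say whether counting used the strand.

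The start regions of Pgr and Greb1 are shown because both genes are textbook estrogen targets while only Pgr had its highest mean in the tissue with the most Esr1. Pgr was never called, and between that tissue and E16.5 FP it did not differ detectably (edgeR adjusted p = 0.264). The sequences are the 250 bases before the RefSeq start (GRCm38.p6), 5′ to 3′ on the gene's strand. Capitals mark the estrogen response half-site GGTCA on either strand, which Pgr's window does not contain.
Pgr, chr9:8899583-8899832, plus strand: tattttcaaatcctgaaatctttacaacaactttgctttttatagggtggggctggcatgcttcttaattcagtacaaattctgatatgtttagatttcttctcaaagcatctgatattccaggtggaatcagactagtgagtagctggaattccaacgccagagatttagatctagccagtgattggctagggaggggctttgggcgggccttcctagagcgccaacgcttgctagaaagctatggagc
Greb1, chr12:16800887-16801136, minus strand: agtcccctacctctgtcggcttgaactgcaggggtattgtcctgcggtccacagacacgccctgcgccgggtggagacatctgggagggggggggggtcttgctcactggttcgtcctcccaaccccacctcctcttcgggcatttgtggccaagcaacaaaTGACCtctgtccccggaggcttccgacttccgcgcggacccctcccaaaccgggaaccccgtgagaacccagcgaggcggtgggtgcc

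A half-site was in 35.2% of the 32851 windows of this length, so a match is common. The full element GGTCANNNTGACC was in 0.0639% of windows and the glucocorticoid and progesterone receptor element GNACANNNTGTNC in 0.387%, and neither was in a window of Esr1, Pgr, Greb1, Srd5a1 or Srd5a2, the 5 genes with a window. RefSeq gives Greb1 a second start inside the gene, whose window (not printed) held 2 half-sites. The CpG dinucleotides numbered 16 in the printed Greb1 window, 2 in its second window and 4 in Pgr's, where the median of all windows was 6. The letters describe these windows and not receptor binding.

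Nr3c1, which encodes the receptor of the glucocorticoids cortisol and corticosterone (chromosome 18, 39410545 to 39519421, minus strand), was the most evenly expressed receptor. Its normalized counts ran from 2981 to 3848 in E16.5 FP (mean 3390 ± 328), from 2496 to 2944 in E16.5 MM (2748 ± 166) and from 2226 to 2890 in E13.5 MM (2668 ± 278). They ran from 1967 to 2548 in E13.5 SM (2240 ± 260) and from 1304 to 2083 in E13.5 VM (1635 ± 308). The ranges of the mammary mesenchymes overlapped, and ventral skin was lowest.

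E13.5 MM was above E13.5 VM by a log2 fold change of 0.71 ± 0.105, with no overlap between their libraries (edgeR adjusted p = 2.02e-05). E16.5 FP was above E13.5 VM by 1.05 (edgeR adjusted p = 4.31e-09) and E16.5 MM by 0.75 (edgeR adjusted p = 1.54e-06). The mammary stages differed by 0.04, with a 95% interval of -0.17 to 0.26 (edgeR adjusted p = 0.756), so a change of the size needed for a call lay outside the interval. The call for E16.5 FP over E13.5 SM at 0.60 (edgeR adjusted p = 1.84e-05) was close to the size threshold and fell to between 0.54 and 0.57 without replicate 1 of E16.5 FP, replicate 2 of E13.5 SM or replicate 4 of E13.5 SM. In the order from E16.5 FP over E16.5 MM, E13.5 MM and E13.5 SM to E13.5 VM, no pair of neighbours was called. The closest to a call were E13.5 SM over E13.5 VM by 0.45 (edgeR adjusted p = 0.000576) and E16.5 MM against E16.5 FP at -0.30 (edgeR adjusted p = 0.0259).

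Srd5a2 encodes the 5-alpha-reductase that is the main isozyme of male urogenital tissues (chromosome 17, 74016955 to 74047916, minus strand). It separated the tissues more sharply than any of the receptors. Its normalized counts in E13.5 MM were 1078, 1082, 1087, 1219 and 1320 (mean 1157 ± 109), and in E13.5 VM 529, 483, 594, 580.0 and 646 (mean 566 ± 62.7). In E16.5 MM they were 25.2, 28.8, 38.5, 20.8 and 47.4 (mean 32.1 ± 10.7). The 3 tissues did not overlap, and the mammary mesenchyme was highest at the early stage and low at the later one.

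In the last 2 tissues Srd5a2 was at the limit of detection. E16.5 FP held raw counts of 0, 3, 4, 3 and 0, and E13.5 SM 1, 0, 1, 1 and 0. A total of 10 counts over 5 libraries in E16.5 FP and of 3 in salivary mesenchyme, from libraries of over 20678150 counts, leaves no usable fold between them.

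In E13.5 MM Srd5a2 exceeded its level in ventral skin by a log2 fold change of 1.03 ± 0.173 (edgeR adjusted p = 9.92e-05). It fell by 5.16 ± 0.219 on the log2 scale between the mammary stages, or 35.7-fold (edgeR adjusted p = 5.59e-15). E16.5 MM was also below E13.5 VM, by -4.13 (edgeR adjusted p = 4.47e-14). Summed counts in E16.5 MM were still 14.8 times those of E16.5 FP, with a 95% counting interval of 7.84 to 31.6, though the E16.5 MM mean did not reach the count minimum of a call. Against E13.5 SM the ratio of summed counts was 2063 for E13.5 MM (706 to 10007), 1010 for E13.5 VM (345 to 4898) and 57.6 for E16.5 MM (19.3 to 283). Those intervals cover counting error only. Ddx3y and Eif2s3y went from at least 2149 and 715 raw counts in E13.5 MM to at most 1 and 2 in E16.5 MM between the mammary stages, so sex and stage cannot be told apart for the fall of Srd5a2. In E13.5 MM, replicates 4 and 5 had the most Srd5a2 (1219 and 1320 normalized counts) and the most Ddx3y (6503 and 6918 raw counts). In E13.5 VM, replicate 5 was highest for both (646 and 2715), while Srd5a2 was lowest in replicate 2 (483) and Ddx3y in replicate 1 (1354). The part of sex in the difference of Srd5a2 between E13.5 MM and E13.5 VM was not tested.

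The start region of Srd5a2 is printed because this gene had the steepest change of the 6 between the mammary stages. The stretch is the part of its RefSeq window that lies before the annotated exon, chr17:74047917-74048110, minus strand, 5′ to 3′, with capitals on a GC box (GGGCGG on either strand).
Srd5a2: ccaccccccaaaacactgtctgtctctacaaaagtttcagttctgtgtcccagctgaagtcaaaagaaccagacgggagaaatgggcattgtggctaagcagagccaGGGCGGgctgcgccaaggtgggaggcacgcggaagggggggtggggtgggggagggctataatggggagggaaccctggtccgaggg
A GC box was in 32.7% of all windows. The 250-base window of Srd5a2 held 2, that of Srd5a1 held 3 and that of Pgr held 1, while those of Greb1 and Esr1 had none.

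Srd5a1 encodes the isozyme found more widely, in liver, brain and skin among others (chromosome 13, 69573449 to 69611442, minus strand). It varied little, with mean normalized counts of 209 ± 40.4 for E13.5 VM, 174 ± 13.8 for E13.5 MM, 166 ± 18.2 for E16.5 MM, 136 ± 14.5 for E16.5 FP and 123 ± 7.43 for E13.5 SM. E13.5 VM ran from 158 to 270.1 and overlapped both mammary mesenchymes, while E13.5 SM ran from 113 to 132. In that order no neighbouring tissues differed at an adjusted p under 0.05, and the calls were for E13.5 SM and E16.5 FP against E13.5 VM.

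Those log2 fold changes were -0.77 ± 0.122 and -0.62 ± 0.122 (edgeR adjusted p = 6.5e-06 and 0.000125). The second was lost by size without replicate 2 of E13.5 VM (-0.50) or replicate 3 of E16.5 FP (-0.54). Between the mammary stages Srd5a1 had a log2 fold change of -0.07 with a 95% interval of -0.32 to 0.18 (edgeR adjusted p = 0.652), against the -5.16 of Srd5a2. Gm17108, a transcript on the same strand that was not analysed here, shares 476 of the 2909 exon bases of Srd5a1. For Srd5a2 a same-strand transcript that was also not analysed, CT025731.1, shares 144 of its 1605 exon bases.

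**Figure D2:**
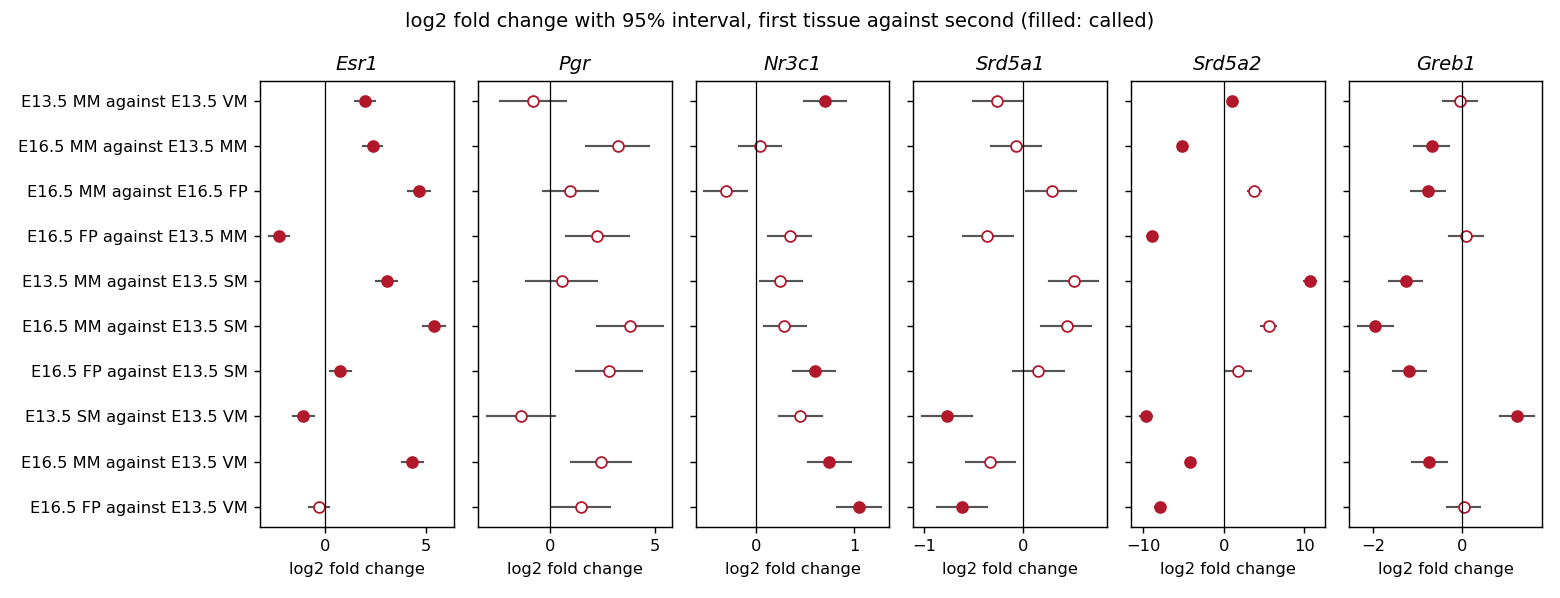
Log2 fold change (horizontal axis, a separate scale for each gene) with its 95% interval for the 6 genes in the 10 comparisons, first tissue against second, from edgeR's quasi-likelihood fit. Filled points were called, and fitted values of Srd5a2 against E16.5 FP and E13.5 SM rest on 10 and 3 counts and depend on the fit's prior count.

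Levels of different genes were compared per kilobase of annotated exon. On that scale Srd5a2 was the highest of the 6 in E13.5 MM at 721 ± 67.7 normalized counts per kb, ahead of Nr3c1 at 347 ± 36.1, Srd5a1 at 59.9 ± 4.76 and Esr1 at 56.5 ± 20.1. With the longest transcript as length, Esr1 had 121.7 ± 43.2 and Srd5a1 65.95 ± 5.24 there, so the order of these genes depends on the length used. E13.5 VM had the same leaders, Srd5a2 at 353 ± 39.0 and Nr3c1 at 213 ± 40.1, followed by Srd5a1 at 71.8. Nr3c1 led in E16.5 FP at 441 ± 42.6 and in salivary mesenchyme at 292 ± 33.9. In E16.5 MM Nr3c1 had 358 ± 21.6 and Esr1 288 ± 97.8 per kb of all exons, but with the longest transcript as length Esr1 had 621 ± 211 and Nr3c1 427 ± 25.8, so their order in that tissue is not fixed by these data. Pgr was lowest of the 6 in ventral skin and both mammary mesenchymes, at 0.867 per kb for the first, 0.484 for E13.5 MM and 4.73 for E16.5 MM.

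Srd5a3, the family member used mainly in making dolichol for glycosylation, had means of 292 to 339 normalized counts over the tissues. Of the 3 reductases' summed level per kb, Srd5a2 made up 83.5% to 86.4% in the libraries of E13.5 MM and 66.2% to 77.1% in those of E13.5 VM. It made up 10.5% to 17.2% in E16.5 MM, at most 3.39% in E16.5 FP and at most 0.508% in E13.5 SM. Srd5a1 and Srd5a3 varied little, so this share mostly restates the level of Srd5a2.

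**Figure D3:**
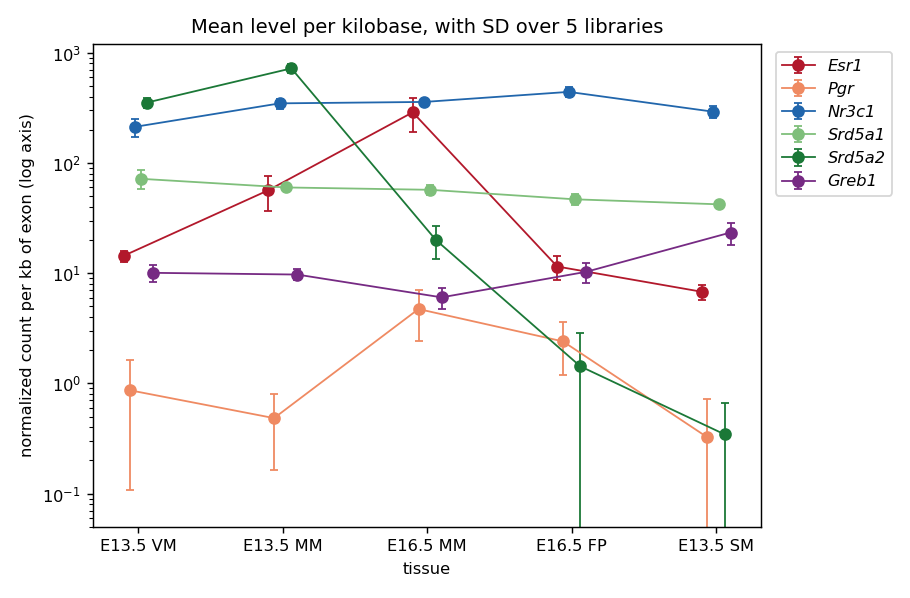
Mean normalized count per kb of annotated exon (log axis) with the SD over 5 libraries, for the 6 genes in the 5 tissues. Lines join the tissues of a gene and show no time course, and bars that run to the lower edge belong to means whose SD is about as large as the mean. Srd5a2 drops from 721 in E13.5 MM to 20.02 in E16.5 MM while Esr1 goes from 56.5 to 288.

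The rest of the pathway was counted in 6 lists. Between mammary mesenchyme and ventral skin at E13.5, Esr1, Nr3c1 and Srd5a2 were higher and 6.45% of all tested genes were called. None of the 12 tested genes for other receptors and steroid-binding membrane proteins, 18 steroid-metabolising enzymes, 13 receptor chaperones and 16 coregulators was called. Under the count minimum of a call, Paqr6, Gper1, Tfap2c and the estrogen response gene Egr3 were higher by 1.93, 1.69, 1.19 and 1.11 (edgeR adjusted p = 0.000266, 0.00589, 0.00927 and 0.00287). Of 15 tested estrogen response genes 3 were higher, the chemokine gene Cxcl12 by a log2 fold change of 1.0, the cyclin gene Ccnd1 by 0.85 and Stc2, a secreted glycoprotein gene, by 0.81 (edgeR adjusted p = 1.23e-07, 1.9e-06 and 0.0237). Their list had a median log2 fold change of 0.22 against -0.01 over all genes tested. The glucocorticoid response list had 1 call of 18, the lipoprotein lipase inhibitor gene Angptl4 at 0.68 (edgeR adjusted p = 0.000177), and a median of 0.13.

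Between the mammary stages 6 of the 18 enzymes rose and 2 fell (44.4% called, beside 19.8% of all genes), with a median of 0.39 against 0.01 over all genes. Akr1c18, which inactivates progesterone, rose by 5.12, and Hsd3b6, a 3-beta-hydroxysteroid dehydrogenase gene, had a change of -3.92 (edgeR adjusted p = 6.74e-06 and 1.87e-08). Cyp11a1, which makes pregnenolone from cholesterol, rose by 3.67, and Hsd11b2, which inactivates glucocorticoids, by 3.61 (edgeR adjusted p = 3.46e-13 and 4.49e-08). Akr1c and Hsd3b genes have close paralogs between which Salmon divides reads, so their counts are uncertain. In the same comparison leukocyte markers were higher for 7 of 8 genes, from 134.2 to 164.9 CPM in sum in E13.5 MM to 265.3 to 311.7 in E16.5 MM. Of the 9 muscle markers 6 were higher and 1 was lower, from 42.33 to 184.4 CPM to 264.7 to 1156. The part of these cells in the list counts was not tested.

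Receptors outside the 6 genes included 3 that rose of 12 tested (25% called). The membrane progestin receptor gene Paqr9 rose by 3.72, the G protein-coupled estrogen receptor gene Gper1 by 1.69 and the mineralocorticoid receptor gene Nr3c2 by 1.37 (edgeR adjusted p = 2.16e-10, 0.00059 and 1.54e-05). Esr2, the gene of estrogen receptor beta, had means of 12.2 and 21.5 normalized counts in E13.5 MM and E16.5 MM and 46.2 in E13.5 SM, its highest. The chaperone list had 3 calls of 13 (23.1%), all lower, with a median of -0.37. They were Stip1 at -0.77, Fkbp4 at -0.65 and Hsp90aa1 at -0.65 (edgeR adjusted p = 1.03e-08, 9.21e-07 and 2.05e-06), which encode a cochaperone, an immunophilin and the inducible Hsp90.

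Coregulators had 5 rises of 16 tested (31.2% called), with a median of 0.13. Tfap2c and Gata3, transcription factor genes that skin and mammary epithelium also express, rose by 2.15 and 1.6 (edgeR adjusted p = 2.04e-06 and 0.00384). The epithelial sums of E16.5 MM stand above, and their part in these values was not tested. Among the estrogen response genes 4 rose and 2 fell of 15 (40% called), with a median of 0.31. Cited1, a coactivator gene, rose by 2.08 and Cxcl12 by 1.08, while Wnt4 had a change of -1.16 (edgeR adjusted p = 7.47e-06, 7.21e-09 and 0.000267).

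The glucocorticoid response list had 5 rises and no fall of 18 (27.8% called, beside 19.8% of all genes), with a median of 0.43. Klf9, a Kruppel-like factor gene, rose by 2.28, the clock gene Per1 by 1.51, Cebpd, an adipogenic transcription factor gene, by 1.44 and Zbtb16 by 1.35 (edgeR adjusted p = 1.13e-13, 8.65e-08, 1.66e-06 and 6e-06). Fat pad markers rose in the same comparison, 6 of 6, from 70.63 to 125.5 CPM in sum in E13.5 MM to 160 to 397.3 in E16.5 MM. Their part in the rise of these genes was not tested.

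E16.5 MM and E16.5 FP share their stage and labelled sex, and 14.1% of all genes were called between them. The share was 41.7% of the receptor list, 20% of the estrogen response genes, 18.8% of coregulators, 16.7% each of enzymes and glucocorticoid response genes and 7.69% of chaperones. Here none of the 18 enzymes was higher in the mesenchyme and 3 were lower, led by Hsd11b1, which regenerates active glucocorticoid, at -1.81 (edgeR adjusted p = 9.64e-06). Among the receptors 1 was higher and 4 lower of 12, with Paqr8, a membrane progestin receptor gene, at 3.39 and Nr3c2 at -1.30 (edgeR adjusted p = 3.77e-14 and 2.65e-05). Of the estrogen response genes 1 was higher and 2 were lower of 15, namely Ccnd1 at 0.72, Cited1 at -2.23 and Myc at -0.99 (edgeR adjusted p = 8.47e-06, 1.32e-06 and 4.54e-06). Glucocorticoid response genes had 1 call higher and 2 lower of 18, with Klf9 at 0.71, Zbtb16 at -0.75 and the metabolic kinase gene Pdk4 at -1.25 (edgeR adjusted p = 1.22e-05, 0.00382 and 0.000179). Chaperones had 1 lower of 13 (Stip1, -0.59), and coregulators 2 higher and 1 lower of 16 (Tfap2c 4.19, Gata3 1.56, Nrip1 -0.61). The medians of the 6 lists lay between -0.38 and 0.17. In the mesenchyme 9 of 9 muscle and 6 of 6 fat pad markers were lower and 6 of 11 epithelial markers higher, and their part in these counts was not tested.

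**Figure D4:**
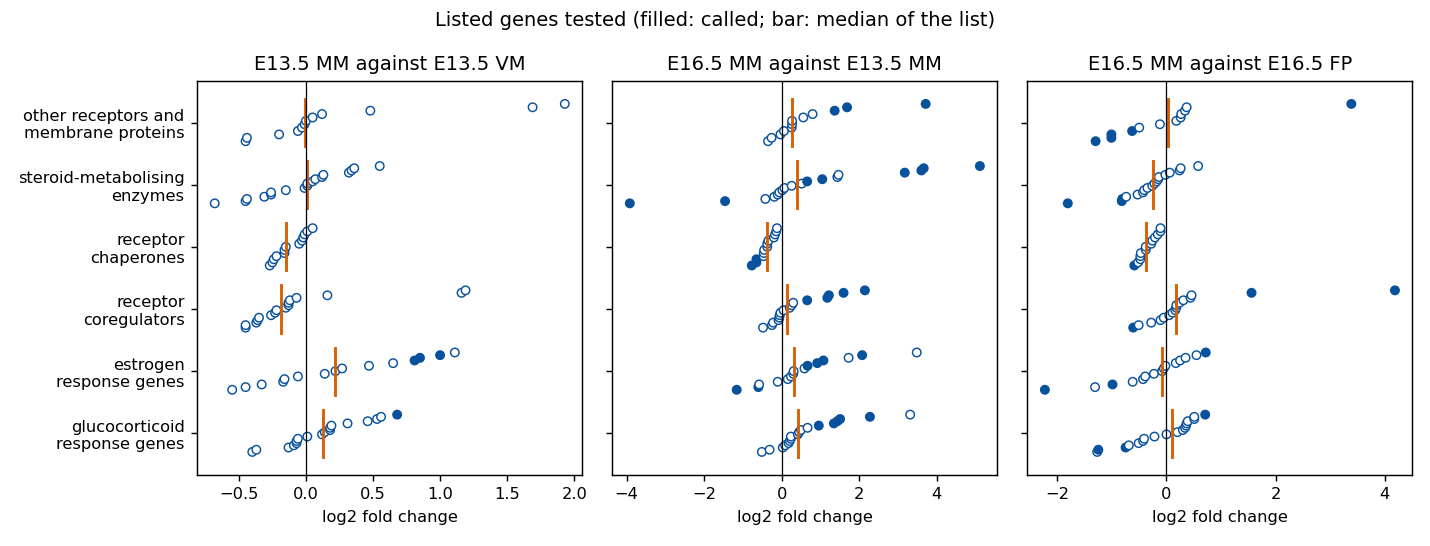
Log2 fold changes (horizontal axis) of the tested genes of the 6 pathway lists in 3 comparisons, with filled points for called genes and an orange bar at the median of each list. Few genes are called between mammary mesenchyme and ventral skin at E13.5, and the enzyme list spreads from -3.92 to 5.12 in E16.5 MM against E13.5 MM.

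In salivary mesenchyme against ventral skin at E13.5, where 30.2% of all genes were called, 6 of the 18 enzymes were higher in the salivary tissue and 1 was lower (38.9% called), with Cyp17a1, the androgen-forming lyase gene, at 3.48 and Star, which brings cholesterol into mitochondria, at 2.17 (edgeR adjusted p = 5.7e-06 and 7.59e-08). Cyp11a1 was lower there, at -2.17 (edgeR adjusted p = 3.18e-08). Levels were modest, with means of 57.2 normalized counts of Cyp17a1 in E13.5 SM and 3.20 to 4.87 in the other tissues. Estrogen response genes had 1 call higher and 6 lower of 15, with Cxcl12 at 3.63 and Tgfa, a growth factor gene, at -1.40 (edgeR adjusted p = 1.03e-18 and 0.000385), or 46.7% called, while coregulators had 7 higher and 1 lower of 16, or 50%. The glucocorticoid response list had 7 calls higher and 4 lower of 18, or 61.1%. The receptor list had 3 higher and 2 lower of 12, or 41.7%, and the chaperones 1 lower of 13, or 7.69%. Neuronal markers were higher in E13.5 SM for 7 of 7 genes, at 274.5 to 348.7 CPM in sum against 10.64 to 14.94 in E13.5 VM. Leukocyte markers were lower for 8 of 8, at 36.82 to 48.48 CPM against 117.3 to 147.6. The part of either in these differences was not tested.

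For each gene the 3 most similar profiles were sought by Pearson's r of log2 CPM over the 25 libraries among 13637 genes. The libraries share 5 tissue means, so these values describe likeness and have no test. Of the 18 genes named 3 (Cd163, Mkks and Alb) were also among the closest by Spearman's rho. Esr1 was most like Tmem218 (0.968), Tenm1 (0.960) and Sp7 (0.956), and Srd5a2 most like Alb (0.974), Hoxd1 (0.974) and Grem1 (0.973). Greb1 resembled Slf2 (0.917), Adamts15 (0.917) and Hvcn1 (0.908), and Nr3c1 resembled Col6a6 (0.902), Mkks (0.894) and Add3 (0.879). For Srd5a1 the closest were F2r (0.897), Tmem98 (0.880) and Lats2 (0.871). Pgr, with few counts, had the lowest values, at 0.861 for Zfp36, 0.857 for the macrophage gene Cd163 and 0.856 for the epithelial integrin gene Itgb4. The 6 genes were left out of the candidates, so their likeness to each other was not examined.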

How the data were processed

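Libraries of 25 mesenchyme pools were prepared with Ovation SoLo reagents for a NextSeq 500 instrument. The authors trimmed the reads with Trimmomatic 0.39, removed ribosomal reads and obtained, with Salmon 0.99.0 on mm10, the estimated counts per gene that they deposited as whole numbers. Salmon shares out reads that match several genes, and the annotation release and strand setting are not stated in the sources read. Symbols and exons came from GENCODE M21 (GRCm38). Of 35880 genes, 446 had no symbol and held 0.103% of all counts. A gene of this receptor family is not reported here.

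Counts were fitted with edgeR 4.0.16 in R 4.3.3 (TMM scaling, its expression filter, robust quasi-likelihood, 1 mean per tissue, no covariate, 20 residual degrees of freedom), and p-values were adjusted by the Benjamini-Hochberg method over the 17657 genes kept. The SE was obtained from the log2 fold change and the test's F statistic, as their size divided by root F. The thresholds for a call were those the authors set with DESeq2 for adjusted p, fold change and count, with the count minimum applied here to the mean normalized count of the higher tissue. Ratios against tissues with few counts have exact 95% intervals that cover counting error only. The fit was tested on counts simulated from its own model, with changes set only in well-expressed genes. Changes at levels as low as those of Pgr, or of Srd5a2 in E16.5 FP and E13.5 SM, were not covered. The alternatives were the Wald test and the size factors of DESeq2 1.42.0, the replicate number as a block, no filter, separate fits per pair of tissues, adjusted p alone, each library left out, the longest transcript as length and Spearman's rho. Figures used matplotlib 3.10.9.

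The 6 genes and the lists were chosen with earlier results of these data known. Named are the 6 genes in every comparison, up to 4 called genes of each list with the largest change and, for each of the 6, the 3 most correlated genes with a mean above 100 in a tissue. Esr2, Srd5a3, Paqr6 and Egr3, and Gper1 and Tfap2c at E13.5, were named outside that rule, after their values were seen.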

Additional observations from a re-analysis of the deposited data

How the results depend on the processing

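All 60 results (6 genes in 10 comparisons) kept their direction and their side of the call under DESeq2's Wald test, under its size factors and with the replicate number as a block. The sizes of the log2 fold changes moved with the block by at most 0.25 and under DESeq2 by at most 0.32. Same-numbered libraries of different tissues did not deviate together throughout, with correlations between -0.63 and 0.45. With so few libraries per tissue, these values cannot show whether some same-numbered libraries shared a litter. With the block, the calls among the 6 genes stayed at 3 for mammary mesenchyme over ventral skin at E13.5 and at 3 for the mammary stages. With no expression filter 59 of the 60 were the same and Nr3c1 in E16.5 FP against E13.5 SM was at 0.54, under the size threshold. Fits of only the tissues compared gave the same side for 54, and the other 6 could not be fitted because the filter removed Pgr or Srd5a2 there. By adjusted p alone 17 more results passed, so that the genes passing went from 2 to 4 in E16.5 MM against E16.5 FP, from 3 to 5 in E13.5 MM against E13.5 SM, from 2 to 6 in E16.5 MM against E13.5 SM, from 3 to 5 in E16.5 FP against E13.5 SM, from 2 to 5 in E16.5 FP against E13.5 MM, from 4 to 6 in E16.5 MM against E13.5 VM, from 4 to 5 in E13.5 SM against E13.5 VM and from 3 to 4 in E16.5 MM against E13.5 MM. That follows from the rule, which drops the minimum of size and count. Over all genes it also moved the calls from 1139 to 2747 for mammary mesenchyme over ventral skin at E13.5 and from 3495 to 8720 between the mammary stages, where 4164 were then higher and 4556 lower, in place of 2231 and 1264. Of 600 results with 1 library left out, 594 kept their call and 6 lost it by size, those of Nr3c1, Srd5a1 and Greb1 named above. The number of genes called then ranged from 2 to 3 in E16.5 MM against E13.5 MM, in E16.5 FP against E13.5 SM and against E13.5 VM, and was the same in the other 7 comparisons. Dixon's criterion found no single outlying library in the 30 groups of values tested, and it cannot find a pair such as replicates 1 and 2 of E13.5 MM for Esr1. Depth limits Pgr in every tissue and Srd5a2 in E16.5 FP and E13.5 SM, where a few counts per library carry each value.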
